A study of Mus musculus with 6 samples.

Results

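Hypoxia and glycolysis genes were read in mouse embryo fibroblasts that differ in MDMX, an inhibitor of p53 that also binds the kinase CK1-alpha. The module holds 36 genes out of 49315 gene rows in the deposited count files, taken by matching Ensembl identifiers to GENCODE symbols. It comprises oxygen sensors and HIF subunits (4 genes), glucose transporters (2), enzymes of glycolysis (15), PFKFB enzymes (2), genes of lactate and pyruvate fate (4) and other hypoxia-induced genes (9). All 36 passed the filter on low counts.

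Poly(A) RNA was sequenced from 6 fibroblast lines of C57BL/6 embryos at passage 4, all null for p53, grown untreated in DMEM with 10% FBS. Lines SG1, SG2 and SG3 were homozygous for a knock-in MDMX allele carrying W201S and W202G, which disrupts binding to CK1-alpha. Controls were lines WT3, WT9 and WT11, whose MDMX alleles were wild-type. Since an embryo gave rise to only 1 line, n = 3 per genotype counts embryos and a difference between lines can belong to the embryo or to its culture. The study asked which transcripts the mutation affects in cells that lack p53; oxygen in the incubator was not given in the sources used here.

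Cells sense oxygen through prolyl hydroxylases (the EGLN enzymes), which mark the alpha subunits of hypoxia-inducible factor (HIF) so that the VHL ubiquitin ligase destroys them. When oxygen falls, the alpha subunits persist, pair with an ARNT subunit and bind short hypoxia response elements, whose core letters are ACGTG or GCGTG, near genes for glucose uptake, glycolysis, lactate export, mitophagy and collagen modification. Cultured fibroblasts also run glycolysis at ordinary oxygen, so abundant enzyme transcripts do not by themselves show a hypoxic stimulus.

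The files held between 49317925 counts (WT3) and 65457242 counts (WT9) per line. Mdm4, which encodes MDMX, stood between 57.4 and 63.8 CPM (counts of a gene per 1000000 of the scaled library total) in the 6 lines, and Trp53 between 69.2 and 73.1 CPM; gene-level counts show neither the substitutions nor the p53-null allele. All 11 fibroblast markers were detected in every line, Col1a1 at 5453 CPM or more, and of these Thy1 (adjusted p = 0.00802, edgeR) and S100a4 (0.0363) were lower and Fn1 (0.0308) higher in SG. DESeq2 called these 3 and also Vim and Pdgfrb, both lower. By the edgeR estimate 8 of the 11 were lower and 3 higher in SG, and 5 had an unadjusted p under 0.05. Of all tested genes, 1.90% passed in edgeR and 5.9% in DESeq2, and 15.5% had an unadjusted p under 0.05. Markers listed for other cell types were present too. Their summed levels in the SG and WT lines were 54.9 to 74.0 and 43.2 to 57.8 CPM for the endothelial list, mostly Kdr, and 54.1 to 104.9 and 69.8 to 96.5 CPM for the epithelial list, mostly Krt19. They were 68.7 to 89.4 and 57.4 to 111.4 CPM for the skeletal muscle list, mostly Acta1. For the neural and glial list, mostly Nes, they were 470.5 to 493.3 and 335.8 to 421.8 CPM. By the edgeR estimate 4 of 6 tested neural and glial genes were lower in SG, although Nes was higher. Among epithelial genes 5 of 6 tested were higher in SG, although Krt19 was lower. Endothelial genes were 3 higher and 3 lower, and skeletal muscle genes 2 higher and 1 lower. In these 4 lists 0 genes passed in edgeR, while 1, 3, 1 and 5 had an unadjusted p under 0.05 and DESeq2 called 1, 1, 0 and 4. Pecam1, Cldn5, Cdh1, Myod1 and Myog were at 0.172 CPM or less in every line, Mymk was at 0 in all, and Krt5 was above 0 only in SG1 (2.94 CPM) and SG2 (1.68 CPM). Their part in the results was not tested. Lines SG1 and WT9 expressed Xist at 399 and 343 CPM and the other lines below 1 CPM, so each genotype had 1 Xist-expressing line. Libraries were made from whole cultures, in which fewer cells of a type and less RNA per cell cannot be told apart.

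Differences between SG and WT lines were small for most of the module. By edgeR's quasi-likelihood test with adjustment over all 16068 genes tested, 1 of the 36 genes passed a threshold of 0.05. This was Egln3, which was higher in SG. The share of all tested genes that passed was 1.90% (306 genes), with 0.809% higher and 1.10% lower in SG. The log2 fold change, always SG minus WT, was below 0 for 24 of the 36 genes and above 0 for 12. Their median was -0.07 against 0.00 for all tested genes. The CPM ranges of the genotypes did not overlap for 14 of the 36 genes, 5 higher and 9 lower in SG, where 21.2% of all tested genes did not overlap (10.0% higher, 11.2% lower). At an unadjusted p under 0.05 there were 13 of the 36, against 15.5% of all tested genes. DESeq2 called 948 of all tested genes (5.9%). The same shares of all tested genes apply to the counts of every list in this report.

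**Figure D1:**
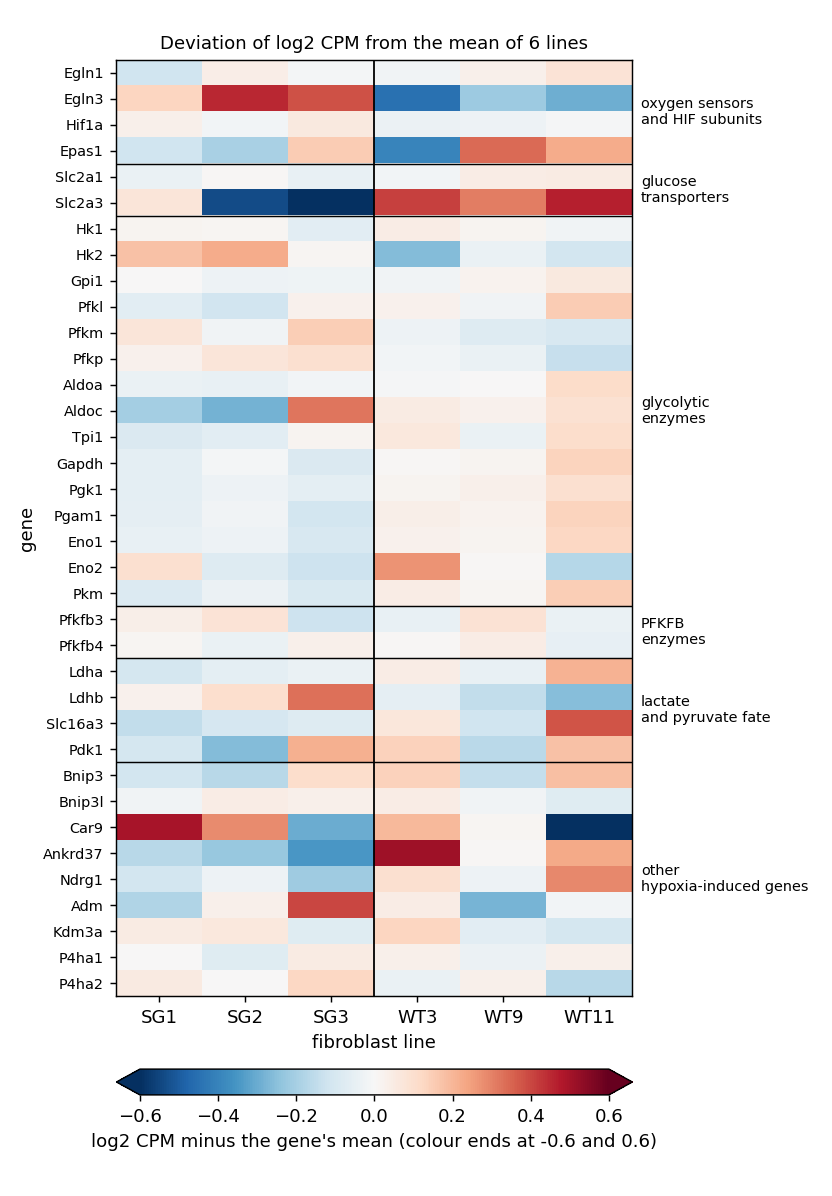
Level of each of the 36 genes (rows, grouped by role) in each fibroblast line (columns), as log2 CPM minus the gene's mean over the 6 lines; red is above the mean and blue below, and colours end at -0.6 and 0.6. Egln3 is red in the 3 SG lines and blue in the 3 WT lines, Slc2a3 is bluest in SG2 and SG3, and WT11 is the reddest line for most of the enzymes.

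Egln3 encodes a prolyl hydroxylase that acts on HIF alpha subunits and is itself induced by HIF. Egln3 (ENSMUSG00000035105, GRCm38 chromosome 12, 54178981 to 54203860, minus strand) stood at 22.6, 28.3 and 26.9 CPM in SG1, SG2 and SG3. The WT lines were lower, WT3 at 15.2, WT9 at 17.8 and WT11 at 16.9 CPM. The lowest SG line, SG1, lay above the highest WT line, WT9. The log2 fold change was 0.64 with a standard error (SE) of 0.10, or 1.56-fold higher in SG (adjusted p = 0.0243, edgeR). The adjusted p was 0.111 without SG2, 0.0513 without SG3, 0.105 without WT3 and 0.101 without WT11, so the call was lost in each. The log2 fold change stayed between 0.58 and 0.73 when any 1 line was left out. Of all tested genes, 3 passed without SG2, 222 without SG3, 24 without WT3 and 29 without WT11, against 306 with all lines. Egln3 passed in 9 of 13 alternative analyses, whose adjusted p ran from 2.25e-07 to 0.111.

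Egln1, the main oxygen sensor of the family in most cells, did not follow Egln3. It ranged from 95.9 CPM (SG1) to 110.4 CPM (WT11), its genotypes overlapped, and the log2 fold change was -0.06 with an SE of 0.05 (adjusted p = 0.642, edgeR). Counted per kilobase of exon, Egln3 made up 24.1%, 26.3% and 26.0% of the Egln1 and Egln3 transcripts together in SG1, SG2 and SG3. The share was 16.6%, 18.4% and 17.1% in WT3, WT9 and WT11. Egln1 thus remained the more abundant transcript in every line, at a mean of 29.0 RPKM (CPM per kilobase of exon) against 7.99 RPKM for Egln3.

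Neither HIF alpha subunit gene passed the threshold. Hif1a, the main oxygen-regulated subunit, stood at 257.4, 248.9 and 262 CPM in SG1, SG2 and SG3 and at 245.8, 246.2 and 250.3 CPM in WT3, WT9 and WT11. SG2 lay within the WT range, with a log2 fold change of 0.05 and an SE of 0.03 (adjusted p = 0.549, edgeR). Epas1, which encodes the related subunit HIF-2 alpha, was low, at 2.01, 1.91 and 2.43 CPM in SG1, SG2 and SG3, and at 1.66, 2.77 and 2.55 CPM in WT3, WT9 and WT11. Epas1 varied more between the WT lines than between genotypes (log2 fold change -0.14, SE 0.21). Per length, Hif1a supplied between 98.8% and 99.3% of the transcripts of these subunits. HIF alpha proteins are controlled by destruction, which mRNA counts do not read.

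Glucose enters fibroblasts mainly through GLUT1, encoded by Slc2a1. It stood at 135.0, 139.5 and 134.7 CPM in SG1, SG2 and SG3 and at 137.2, 143.4 and 143.8 CPM in WT3, WT9 and WT11, with overlap and a log2 fold change of -0.05 (SE 0.04). Slc2a3 encodes GLUT3, a transporter of high affinity that is most abundant in neurons. Slc2a3 (ENSMUSG00000003153, chromosome 6, 122727809 to 122801640, minus strand) stood at 9.53, 6.25 and 5.53 CPM in SG1, SG2 and SG3, and at 12.1, 11.2 and 12.5 CPM in WT3, WT9 and WT11. All 3 SG lines lay below all 3 WT lines, and SG1 lay closer to WT9 than to the other SG lines. Its log2 fold change of -0.75 (SE 0.19), or 1.68-fold lower in SG, was the most negative in the module, but it did not pass the threshold (adjusted p = 0.0961, edgeR). It passed in 4 of 13 alternative analyses, with DESeq2 (adjusted p = 0.00144), with no count filter (0.00522), without SG1 (0.00393) and without both SG1 and WT9 (0.00453). Across the 13 the adjusted p ran from 0.00144 to 0.317. Per length, GLUT3 transcripts were 1.95% to 3.30% of the GLUT1 and GLUT3 sum in SG lines and 3.64% to 4.08% in WT lines.

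**Figure D2:**
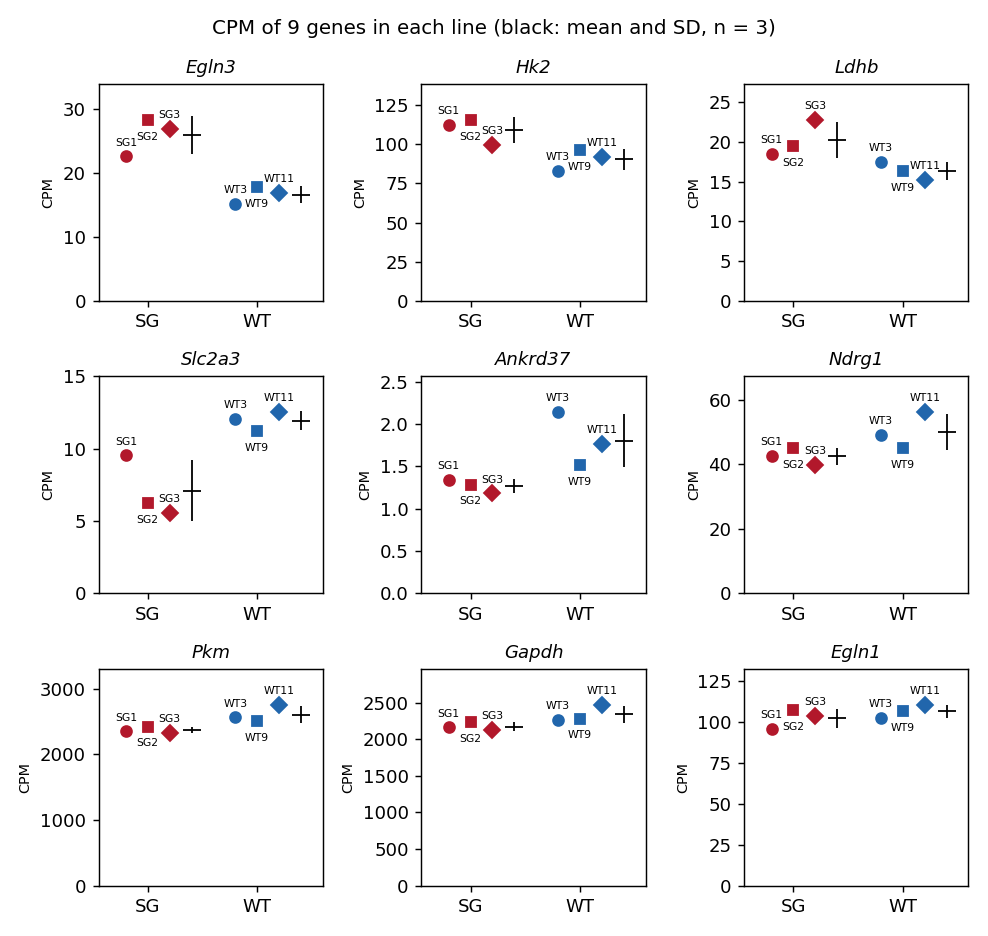
CPM of 9 genes in each line, SG lines in red and WT lines in blue on axes that start at 0; the black marks beside each genotype are the mean and SD over n = 3 lines. Egln3, Hk2 and Ldhb are higher in every SG line than in any WT line, Slc2a3, Ankrd37, Pkm and Gapdh are lower, SG2 and WT9 nearly touch at 44.97 CPM for Ndrg1, and Egln1 overlaps.

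Of the 15 enzymes of glycolysis, 0 passed the threshold in edgeR, 8 had an unadjusted p under 0.05, and DESeq2 called 1, Hk2. Their log2 fold changes were below 0 for 12 and above 0 for 3 enzymes, with a median of -0.09 and a range from -0.14 to 0.27. Separate genotype ranges were seen for 3 enzymes that were higher in SG (Hk2, Pfkm, Pfkp) and 6 that were lower (Aldoa, Gapdh, Pgk1, Pgam1, Eno1, Pkm). Of all tested genes, 10.0% had higher and 11.2% lower SG ranges, and 15.5% had an unadjusted p under 0.05.

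Hexokinase traps glucose in the cell by phosphorylating it, and HK2 is the isoform that HIF and growth signals induce. Hk2 (ENSMUSG00000000628, chromosome 6, 82725025 to 82774454, minus strand) stood at 112.2, 115.7 and 99.9 CPM in SG1, SG2 and SG3, and at 82.9, 96.3 and 91.9 CPM in WT3, WT9 and WT11. SG3 and WT9, the closest pair across genotypes, were 99.9 and 96.3 CPM. The log2 fold change was 0.27 with an SE of 0.07 (adjusted p = 0.114, edgeR), and it passed in 2 of 13 alternatives, DESeq2 (0.0102) and no count filter (0.0205), with a range of 0.0102 to 0.343. Hk1, the constitutive isoform, ranged from 98.9 to 106.6 CPM with a log2 fold change of -0.02 (SE 0.04). Hk2 made up 59.1% to 61.4% of hexokinase transcripts per length in the SG lines and 52.7% to 56.9% in the WT lines.

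Phosphofructokinase, the committed step of glycolysis, was encoded chiefly by Pfkl, with Pfkm and Pfkp behind it. Pfkm stood at 32.3, 30.2 and 34.0 CPM in SG1, SG2 and SG3 and at 30.0, 29.1 and 28.7 CPM in WT3, WT9 and WT11. Pfkp stood at 50.9, 52.6 and 53.5 CPM in SG1, SG2 and SG3 and at 49.4, 48.7 and 45.5 CPM in WT3, WT9 and WT11. SG2 and WT3 differed by less than 1 CPM for Pfkm. The log2 fold changes were 0.14 (SE 0.05, adjusted p = 0.262, edgeR) for Pfkm and 0.13 (SE 0.04, adjusted p = 0.201) for Pfkp, beside -0.10 (SE 0.06) for Pfkl, whose genotypes overlapped. The per-length share of Pfkl was 63.6% to 63.9% in SG lines and 66.2% to 69.5% in WT lines. Pfkm shares exon bases with Senp1 and Pfkp with Pitrm1, and strand use in the counting was not given in the sources used here.

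The 6 enzymes with lower SG ranges differed from WT by small amounts. Pkm, which encodes the last, pyruvate-forming enzyme, stood at 2349, 2424 and 2333 CPM in SG1, SG2 and SG3 and at 2563, 2503 and 2755 CPM in WT3, WT9 and WT11. Its log2 fold change of -0.14 (SE 0.05), or 1.10-fold lower in SG, had an adjusted p of 0.185 (edgeR), and between 0.0754 and 0.367 across the 13 alternatives. For the other 5 the log2 fold change was smaller in size: -0.13 for Pgam1, -0.11 for Eno1 and Gapdh, -0.10 for Pgk1 and -0.07 for Aldoa, with adjusted p from 0.203 to 0.473 (edgeR).

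The same line, WT11, was highest for all 6. Gapdh, which encodes the enzyme that makes the NADH of glycolysis, stood at 2161, 2235 and 2124 CPM in SG1, SG2 and SG3 and at 2266, 2283 and 2471 CPM in WT3, WT9 and WT11. Pgk1, an X-linked gene for the next, ATP-forming step, stood at 619.8, 630.6 and 619.7 CPM in the SG lines and at 653.4, 659.5 and 690.3 CPM in the WT lines in the same order. Pgam1 stood at 259.8, 265.7 and 250 CPM in SG and 276.9, 273.9 and 296.3 CPM in WT lines. SG3 was the lowest line for these 3, while the order of the other lines differed between genes. Eno1, the enolase gene, stood at 2138, 2160 and 2067 CPM in SG1, SG2 and SG3 and at 2248, 2234 and 2406 CPM in WT3, WT9 and WT11. Aldoa, the main aldolase gene, stood at 948.6, 944.9 and 963.2 CPM in SG1, SG2 and SG3 and at 969.6, 977.6 and 1053 CPM in WT3, WT9 and WT11. SG3 was the lowest line for Eno1 but the highest SG line for Aldoa.

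WT11 was the highest line for 9 of the 15 enzymes, and the enzymes together took 1.09% of its counts. They took 1.04% in WT3, 1.02% in WT9 and between 0.959% and 0.981% in the SG lines. With all lines the median log2 fold change of the 15 enzymes was -0.09. It was -0.056 without WT11, -0.064 without SG2 and -0.068 without SG1. Without SG3, WT3 or WT9 it was -0.09, -0.087 and -0.102. Cell cycle transcripts were also highest in WT11. All 10 on the list had log2 fold changes below 0, and 6 had lower SG ranges, against 11.2% of all tested genes. Of the 10, 0 passed the threshold in edgeR or DESeq2 and 2 had an unadjusted p under 0.05 (15.5% of all tested genes). Summed over the 10, the level was 1988, 2016 and 1995 CPM in SG1, SG2 and SG3 and 2080, 2039 and 2202 CPM in WT3, WT9 and WT11. Macrophage markers also differed between lines. All 14 were detected, and their sum was lowest in WT11 (15.2 CPM), highest in SG3 (86.0 CPM) and between 35.1 and 46.1 CPM elsewhere. By the edgeR estimate 13 of the 14 were higher and 1 was lower in SG. Of these, 0 passed in edgeR or DESeq2 and 0 had an unadjusted p under 0.05. The part of either in the enzyme values was not tested.

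The remaining enzymes overlapped between genotypes. Tpi1 had a log2 fold change of -0.09 (SE 0.05) with WT9 (460.8 CPM) inside the SG range, and Gpi1 had a log2 fold change of -0.04 (SE 0.03). The minor isoform Aldoc stood at 1.36, 1.28 and 1.95 CPM in SG1, SG2 and SG3 and at 1.62, 1.59 and 1.67 CPM in WT3, WT9 and WT11, with SG lines on both sides of the WT lines. Eno2, at 12.5 CPM (WT11) to 17.0 CPM (WT3), varied within genotypes. Aldoa made up more than 99% of aldolase transcripts per length, and Eno1 more than 99% of enolase transcripts, in every line. Gapdh was the most abundant gene of the module per length, at a mean of 546 RPKM, followed by Pkm at 497 RPKM, Eno1 at 411 RPKM and Ldha at 342 RPKM. The upstream enzymes were far lower, with Gpi1 at 56.7 RPKM, Pfkl at 30.0 RPKM and Hk2 at 16.7 RPKM.

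**Figure D3:**
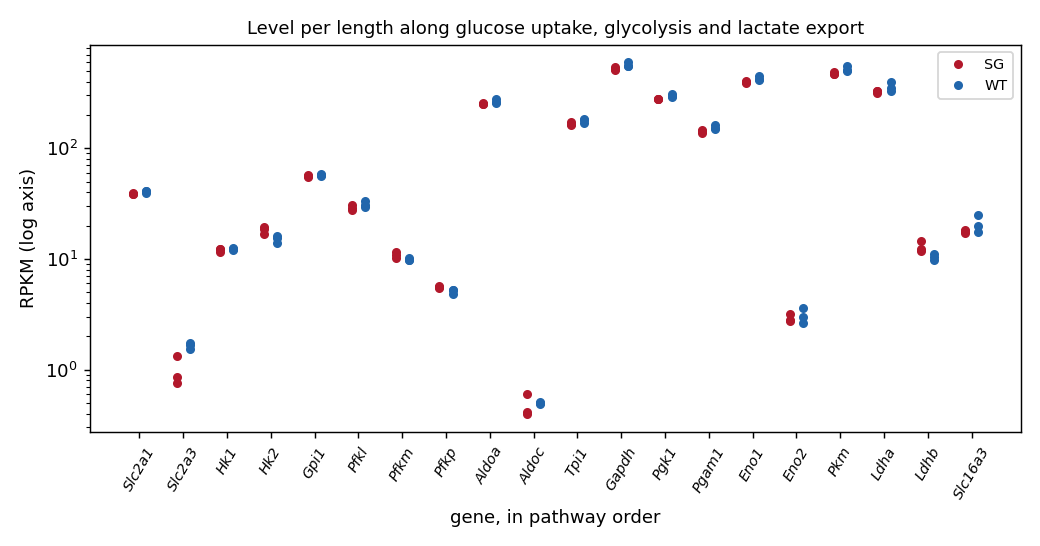
Level per length (RPKM, log axis) of 20 genes in the order of glucose uptake, glycolysis and lactate export, with 1 point per line (SG in red, WT in blue, 3 lines each). Enzymes from Aldoa to Ldha lie above 100 RPKM except the minor isoforms Aldoc and Eno2, and the difference between genotypes is small beside the difference between genes.

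Near-identical copies could take reads from several of these genes. At 95% identity or more over 300 bases or more, 12 of the 36 genes had a copy among the gene rows, 101 of them copies of Gapdh. Reads assigned to copies amounted to 0.554% of the reads assigned to Gapdh, 0.164% for Eno1 and 0.151% for Pkm, and at most that Gapdh share for the others. How the counting treated reads that match several places was not given. Any such reads left out of both gene and copy are missing from these shares. Egln3, Slc2a3 and Hk2 had 0 copies and shared no exon bases with another gene.

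Pfkfb3 and Pfkfb4 encode enzymes that make and remove fructose 2,6-bisphosphate, the activator of phosphofructokinase, and both are HIF targets. Both had values close to 0. The log2 fold changes were -0.002 (SE 0.065) for Pfkfb3 and 0.0003 (SE 0.077) for Pfkfb4, at 6.63 to 7.06 CPM. Pfkfb3, the more abundant per length, stood at 30.4, 31.4 and 27.3 CPM in SG1, SG2 and SG3 and at 28.8, 31.5 and 28.9 CPM in WT3, WT9 and WT11, with overlap. Here 0 of 2 passed in edgeR or DESeq2, and 0 had an unadjusted p under 0.05.

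Pyruvate is turned to lactate by lactate dehydrogenase, and the A subunit, a HIF target, favours that direction. Ldha stood at 1048, 1082 and 1095 CPM in SG1, SG2 and SG3 and at 1162, 1092 and 1303 CPM in WT3, WT9 and WT11. WT9 lay within the SG range, and the log2 fold change was -0.14 (SE 0.06, adjusted p = 0.343, edgeR). The B subunit gene Ldhb (ENSMUSG00000030246, chromosome 6, 142490249 to 142507957, minus strand) ran the other way, at 18.5, 19.5 and 22.8 CPM in SG1, SG2 and SG3 and at 17.5, 16.4 and 15.2 CPM in WT3, WT9 and WT11. Its genotypes did not overlap, though SG1 and WT3 differed by about 1 CPM. The log2 fold change was 0.31 (SE 0.09, adjusted p = 0.148, edgeR), and it passed in 1 of 13 alternatives, DESeq2 (0.0456), with a range of 0.0456 to 0.379. Ldhb was 3.58% to 4.2% of lactate dehydrogenase transcripts per length in SG lines and 2.40% to 3.07% in WT lines.

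Slc16a3, the gene of the lactate exporter MCT4, stood at 91.7, 94.6 and 96.1 CPM in SG1, SG2 and SG3 and at 106.4, 93.4 and 131.8 CPM in WT3, WT9 and WT11. Its log2 fold change of -0.23 (SE 0.11, adjusted p = 0.382, edgeR) was -0.08 without WT11. Pdk1, a kinase that keeps pyruvate out of the mitochondrion by inhibiting pyruvate dehydrogenase, ranged from 14.2 CPM (SG2) to 19.7 CPM (SG3) with a log2 fold change of -0.10 (SE 0.13).

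**Figure D4:**
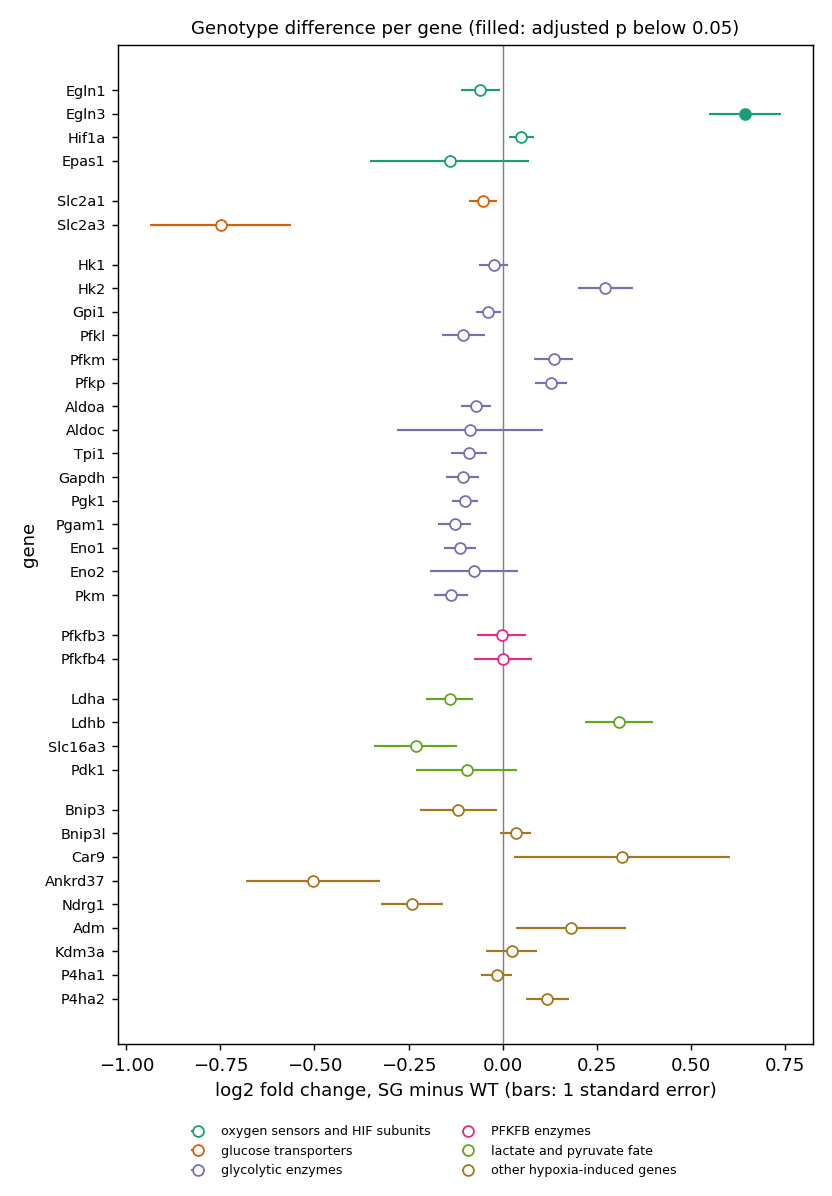
Log2 fold change (SG minus WT) of each of the 36 genes with bars of 1 standard error, coloured by role; a filled point marks an adjusted p under 0.05 in edgeR. Egln3 at 0.64 is the only filled point, Slc2a3 lies lowest at -0.75, and the abundant enzymes from Aldoa to Pkm sit between -0.14 and -0.07.

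Among the 9 other hypoxia-induced genes, 0 passed in edgeR or DESeq2 and 2 had an unadjusted p under 0.05. Their median log2 fold change was 0.02, with 5 above and 4 below 0. Both with separate ranges were lower in SG. Ankrd37, which encodes a small ankyrin-repeat protein and is strongly induced by HIF, stood at 1.34, 1.28 and 1.18 CPM in SG1, SG2 and SG3 and at 2.14, 1.51 and 1.76 CPM in WT3, WT9 and WT11. Its log2 fold change was -0.50 (SE 0.18, adjusted p = 0.220, edgeR), at a low level and with exon bases shared with Lrp2bp and Ufsp2. Ndrg1, a stress-induced gene of membrane traffic, stood at 42.5, 44.97 and 39.7 CPM in SG1, SG2 and SG3 and at 49.2, 44.97 and 56.1 CPM in WT3, WT9 and WT11. SG2 and WT9 were equal at this rounding, and the log2 fold change was -0.24 (SE 0.08, adjusted p = 0.211, edgeR).

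The rest of this group overlapped between genotypes and 2 of them varied widely within a genotype. Car9, which encodes a carbonic anhydrase on the cell surface that is a standard marker of hypoxic cells, stood at 1.78, 1.54 and 1.03 CPM in SG1, SG2 and SG3 and at 1.44, 1.27 and 0.783 CPM in WT3, WT9 and WT11. It was therefore low in every line, with a log2 fold change of 0.32 (SE 0.29). Adm, the gene of the vasodilator adrenomedullin, stood at 59.1, 68.2 and 88.4 CPM in SG1, SG2 and SG3 and at 69.0, 55.1 and 66.1 CPM in WT3, WT9 and WT11. SG3 alone was high, and the log2 fold change was 0.18 (SE 0.15).

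The mitophagy receptor genes Bnip3, at 22.7 to 28.9 CPM, and Bnip3l, at 73.2 to 79.3 CPM, had log2 fold changes of -0.12 (SE 0.10) and 0.03 (SE 0.04). Kdm3a, a histone demethylase gene, had 0.02 (SE 0.07). The collagen prolyl 4-hydroxylase genes P4ha1 and P4ha2 had -0.02 (SE 0.04) and 0.12 (SE 0.06). P4ha1, the most abundant of the 9 per length at a mean of 59.5 RPKM, stood at 245.3, 232.5 and 253 CPM in SG1, SG2 and SG3 and at 249.7, 239 and 250.4 CPM in WT3, WT9 and WT11.

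Promoter sequence was read in the 250 bases before the RefSeq start site (GRCm38.p6) for 32 of the 36 genes. ACGTG occurred on either strand in 16 of the 32 (50.0%) and GCGTG in 17 (53.1%), and 26 (81.2%) held at least 1 of them. With 1 window of the same length for each of 11284 tested genes, the shares were 21.5%, 44.9% and 56.0%. CACGTG, which reads ACGTG on both strands, counts as 2 matches. Windows are shown for Egln3, the called gene, for Hk2, the enzyme with the most positive log2 fold change, and for Pgk1 and Pgam1, with lower SG ranges. Each runs 5′ to 3′ on the gene's strand up to the base before the start site, with matches of ACGTG or GCGTG on either strand in capitals.
Egln3 (chr12:54203875-54204124, minus strand): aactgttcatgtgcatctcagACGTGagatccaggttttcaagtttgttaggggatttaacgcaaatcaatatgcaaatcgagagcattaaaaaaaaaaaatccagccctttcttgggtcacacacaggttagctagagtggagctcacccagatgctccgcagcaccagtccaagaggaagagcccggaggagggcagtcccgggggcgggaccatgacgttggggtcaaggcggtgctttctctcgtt
Hk2 (chr6:82774455-82774704, minus strand): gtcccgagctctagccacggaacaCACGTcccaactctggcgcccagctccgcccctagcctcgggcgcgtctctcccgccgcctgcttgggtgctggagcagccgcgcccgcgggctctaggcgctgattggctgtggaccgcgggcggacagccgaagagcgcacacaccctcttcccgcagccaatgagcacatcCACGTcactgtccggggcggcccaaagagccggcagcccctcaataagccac
Pgk1 (chrX:106186850-106187099, plus strand): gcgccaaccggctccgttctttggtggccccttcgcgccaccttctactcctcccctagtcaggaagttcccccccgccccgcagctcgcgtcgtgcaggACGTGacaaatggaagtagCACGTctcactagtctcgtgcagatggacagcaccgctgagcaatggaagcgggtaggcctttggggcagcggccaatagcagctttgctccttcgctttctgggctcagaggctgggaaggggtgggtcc
Pgam1 (chr19:41911621-41911870, plus strand): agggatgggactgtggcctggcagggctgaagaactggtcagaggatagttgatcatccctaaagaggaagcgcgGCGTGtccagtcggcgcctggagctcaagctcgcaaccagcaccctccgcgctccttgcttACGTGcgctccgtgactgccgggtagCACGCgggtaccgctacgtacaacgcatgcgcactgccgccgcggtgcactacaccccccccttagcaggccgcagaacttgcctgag

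The Egln3 window held 1 match, 229 bases before the start site, and the Hk2 window 2, at 226 and 52 bases. Those of Pgk1 lay at 150 and 131 bases and those of Pgam1 at 175, 114 and 88 bases. Matches thus stood before genes with higher and with lower SG ranges. Pkm, with a lower range, had 0 in its window. For Hif1a, Aldoa, Ldha and Ankrd37 the RefSeq start site lay between 4329 and 8661 bases from the gene start in the files. A match is a run of letters and not a measured binding site.

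Of 15 tested HIF pathway components outside the 36 genes, 1 passed the threshold, Arnt2, which encodes a partner subunit related to ARNT. Log2 fold changes were above 0 for 11 of the 15 and below 0 for 4. SG ranges were higher for 4 and lower for 0 (10.0% and 11.2% of all tested genes). An unadjusted p under 0.05 was found for 2, and DESeq2 called Arnt2 alone. It was higher in SG, at 23.9, 25.1 and 27.3 CPM in SG1, SG2 and SG3 and 16.5, 17.2 and 14.6 CPM in WT3, WT9 and WT11. The log2 fold change was 0.66 (SE 0.08, adjusted p = 0.0134, edgeR). Arnt itself was more abundant in every line, at 65.6 to 72.7 CPM, with a log2 fold change of 0.08 (SE 0.04), and Vhl and Egln2 had 0.04 (SE 0.06) and -0.02 (SE 0.04). The Arnt2 call was lost without SG2 (adjusted p = 0.0810), WT3 (0.0700) or WT11 (0.0510), within a range of 4.54e-10 to 0.0810 over the 13 alternatives. Arnt2 shares exon bases with Gm30873.

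Among 29 tested hypoxia-induced genes that are not in the module, 3 passed, 1 higher and 2 lower in SG, where 1.90% of all tested genes passed. An unadjusted p under 0.05 was found for 10, and DESeq2 called the same 3 and Insig2. Angptl4, a secreted inhibitor of lipoprotein lipase, fell: it stood at 6.05, 5.17 and 4.02 CPM in SG1, SG2 and SG3 and at 9.96, 9.42 and 11.4 CPM in WT3, WT9 and WT11. Its log2 fold change was -1.01, with an SE of 0.15 (adjusted p = 0.0245, edgeR). Bhlhe40 and Bhlhe41 encode a related pair of transcriptional repressors, and they moved in opposite directions. Bhlhe40 fell by 0.29 on the log2 scale (SE 0.04, adjusted p = 0.0229, edgeR) and Bhlhe41 rose by 0.40 (SE 0.08, adjusted p = 0.0487, edgeR). The Bhlhe41 call was lost in 7 of 13 alternatives, whose adjusted p ran from 0.00061 to 0.169: with the Xist covariate (0.0509), without SG1 and WT9 (0.0649), and without SG2 (0.134), SG3 (0.0545), WT3 (0.134), WT9 (0.0802) or WT11 (0.169). The calls of Angptl4 (0.104 to 0.115) and Bhlhe40 (0.0903 to 0.114) were each lost without SG2, WT3 or WT11, and over the 13 alternatives the lowest adjusted p was 6.30e-08 and 1.24e-05. Vegfa, the angiogenic growth factor, had 0.12 (SE 0.06, adjusted p = 0.396, edgeR).

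Angptl4 is also a gene of fat cells, and the 6 adipocyte markers summed to 45.5, 32.8 and 27.7 CPM in SG1, SG2 and SG3 and to 65.3, 60.8 and 49.8 CPM in WT3, WT9 and WT11. Most of that sum was Lpl, whose log2 fold change was -0.70 (SE 0.19, adjusted p = 0.128, edgeR). The log2 fold change of Fabp4 was -1.30 (SE 0.26, adjusted p = 0.0530, edgeR). Of 3 tested adipocyte genes, 0 passed in edgeR and DESeq2 called Fabp4 alone, as lower in SG. An unadjusted p under 0.05 was found for 2 (15.5% of all tested genes), and 2 had lower SG ranges (11.2%). Pparg overlapped between genotypes, at 1.196 to 2.499 CPM in SG and 1.22 to 2.00 CPM in WT lines, with a log2 fold change of 0.16. Adipoq, Plin1 and Cidec were at 0.0362 CPM or less in every line. Their part in the Angptl4 difference was not tested.

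Of 18 other tested isoforms and transporters of glycolysis, 1 passed, Bpgm, which makes 2,3-bisphosphoglycerate from an intermediate of glycolysis. An unadjusted p under 0.05 was found for 4, and DESeq2 called Bpgm and Adpgk. Bpgm was lower in SG, at 22.0, 20.9 and 22.4 CPM in SG1, SG2 and SG3 and 33.0, 26.4 and 30.7 CPM in WT3, WT9 and WT11. Its log2 fold change was -0.46 (SE 0.08, adjusted p = 0.0376, edgeR). The call was lost without SG1 (adjusted p = 0.0502), SG2 (0.171), SG3 (0.0641), WT3 (0.125) or WT11 (0.144), and across the 13 alternatives the adjusted p ran from 6.26e-05 to 0.171.

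No gene of the routes that leave glycolysis passed in edgeR. Of 14 genes of pyruvate entry into mitochondria, 4 had an unadjusted p under 0.05 and DESeq2 called 1, Pdha1, the catalytic subunit gene of pyruvate dehydrogenase (log2 fold change -0.17, SE 0.05, adjusted p = 0.122 in edgeR). Of 17 genes of the tricarboxylic acid cycle, 0 had an unadjusted p under 0.05, and Idh3a had the smallest p (-0.13, SE 0.06). Of 13 respiratory chain genes, 12 were below 0, with a median of -0.04 and 2 with an unadjusted p under 0.05, among them Uqcrc2 (-0.10, SE 0.03). The 8 genes of the pentose phosphate pathway included 0 with an unadjusted p under 0.05, and Rpia had the smallest p (-0.15, SE 0.08). DESeq2 called 0 genes of the tricarboxylic acid cycle, the respiratory chain and the pentose phosphate pathway. Lower SG ranges were seen for 4 genes of pyruvate entry, 3 of the tricarboxylic acid cycle and 4 of the respiratory chain. A higher SG range was seen for 1 gene, in the tricarboxylic acid cycle. Of all tested genes, 11.2% had lower and 10.0% higher SG ranges.

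Glycogen and gluconeogenesis had 9 tested genes, 0 of them past the threshold in edgeR or DESeq2 and 1 with an unadjusted p under 0.05, the glycogen branching enzyme gene Gbe1 (0.27, SE 0.07). Of the 4 tested glucose-sensing factors and targets, 0 passed in edgeR, 2 had an unadjusted p under 0.05 and DESeq2 called Txnip, a glucose-induced inhibitor of glucose uptake. Txnip stood at 37.5, 31.2 and 38.9 CPM in SG1, SG2 and SG3 and at 24.7, 29.6 and 23.8 CPM in WT3, WT9 and WT11 (log2 fold change 0.46, SE 0.11, adjusted p = 0.0760, edgeR).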

How the data were processed

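Poly(A) RNA-seq of 6 fibroblast lines was analysed from the deposited tables of whole-number read counts per gene, which are not normalised. The submitters' processing notes name Trimmomatic 0.36, STAR 2.5.2b, featureCounts in Subread 1.5.2, DESeq2 and the build GRCm38. How the counting treated strand and multimapping reads, and from which annotation release, is not given in the sources used here. No batch term was fitted, since the labels name no litter, culture day or sequencing run.

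Genes were filtered with filterByExpr at its defaults, scaled by TMM and tested 2-sided with edgeR 4.0.16 (quasi-likelihood, no covariate) in R 4.3.3, with Benjamini-Hochberg adjustment over 16068 genes and a threshold of 0.05. The fit was also run on counts simulated with known changes, all larger than the differences of most of the 36 genes. That run therefore does not show how well differences as small as theirs would be found. SE is the log2 fold change over the square root of F. CPM is counts per TMM-scaled library total, and RPKM divides CPM by the exon length in kilobases given in the files. Copies were sought with blastn 2.17.0. Alternatives were other scalings, no filter, DESeq2 1.42.0, a robust prior, Xist-high lines (above 100 CPM) as a covariate or left out, and each line left out in turn; those for genes outside the 36 were added after seeing the data.

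The 36 genes and all lists were chosen with earlier results of these data known. Genes described in every line were those past the threshold, without overlap between genotypes, most abundant per length in their role group, or differing 1.5 times or more between lines. Of the other pathway lists, genes past the threshold or with the smallest p were named; Outside that rule, line values of Slc16a3 and Txnip, and Vegfa, Arnt, Vhl, Egln2 and the marker genes, were chosen after their values were seen.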

Additional observations from a re-analysis of the deposited data

How the results depend on the processing

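Higher genes in the module numbered 1, against 2 with no count filter and 3 with DESeq2, and lower genes 0, against 1 with no filter, with DESeq2 and without SG1 and WT9. Leaving out 1 line gave 0 to 1 higher and 0 to 1 lower. All genes past the threshold numbered 306 of 16068 (1.90%), against 959 of 28807 with no filter (3.33%) and 948 of 16068 with DESeq2 (5.9%). Without SG1 and WT9 they numbered 703 (4.36%). When 1 line was left out they numbered from 3 (0.0184%, without SG2) to 579 (3.53%, without SG1). Of 468 alternative values of the 36 genes, 439 kept direction and side of the threshold, 18 changed sign, 7 newly passed and 4 (Egln3) no longer passed. Sign changes were all of genes that passed in no analysis, and the values with the changed sign were at most 0.0555 in size. Without SG1 and WT9 they were Epas1 0.0377, Pfkfb3 0.026 and Kdm3a -0.0193, and with upper quartile scaling Pfkfb3 0.0078. The rest arose when 1 line was left out, where the full ranges of some genes were wider. They were -0.327 to 0.0031 for Epas1, -0.0399 to 0.0013 for Hk1 and -0.298 to 0.0287 for Aldoc. For Eno2, Pfkfb3 and Pfkfb4 they were -0.172 to 0.0481, -0.0443 to 0.0555 and -0.0226 to 0.0221. For Pdk1, Kdm3a and P4ha1 they were -0.239 to 0.005, -0.0204 to 0.0984 and -0.044 to 0.0176. The cause was not tested. Arnt2, Angptl4 and Bhlhe40 passed in 10 of 13 alternatives, Bpgm in 8 and Bhlhe41 in 6, each with its direction kept. With 3 embryos per genotype, low genes such as Car9, Epas1 and Ankrd37 are measured least precisely. No paired analysis was possible because the line numbers of the genotypes share only 1 value, 3, which the labels do not link.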
